A study of Mus musculus with 11 samples.

Results

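The genes of this report encode enzymes of glycolysis and their main glucose carrier in mouse testis, and they were chosen by name: 10 of the 24411 genes in the count table. The sperm isozymes are 5 of them, Gapdhs, Pgk2, Ldhc, Aldoart1 and Ldhal6b, which are transcribed in germ cells. The other 5, Hk1, Pgam2, Tpi1, Ldha and Slc2a3, also work outside germ cells. The list is one of gene names with no threshold on a measured value, and all 10 passed the filter on low counts in every comparison.

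Glycolysis splits glucose into pyruvate in a fixed chain of steps and yields ATP, and lactate dehydrogenase turns pyruvate into lactate. Sperm hold this chain along the fibrous sheath of the tail, where it fuels motility, and several of its steps are there run by isozymes from germ cell specific genes. Some of these genes are intronless copies of an older gene, and Pgk2, whose older counterpart lies on the X chromosome, is the classical case of a copy that is active in meiotic and later germ cells, when the X chromosome is silenced.

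RNA from decapsulated testis was sequenced from 4 wild-type (WT) samples of the C57Bl/6J strain, 4 Irp1-/- samples and 3 Irp2-/- samples, none of them treated. Irp1-/- stands for the global knockout of Aco1, which encodes iron regulatory protein 1, and Irp2-/- for the global knockout of Ireb2, which encodes iron regulatory protein 2. These proteins bind iron responsive elements in mRNAs and so set iron uptake and storage. The Irp1-/- line was kept on the C57Bl/6J background, and the WT and Irp1-/- testes came from mice of 20 weeks. The age of the Irp2-/- mice was not given in the sources used here. Because the labels do not tie each sample to a mouse, p-values measure the spread between these samples. Total counts were 16358055 to 18257228 in WT, 15902473 to 22451417 in Irp1-/- and 18519415 to 22349732 in Irp2-/- samples. In the knockouts the targeted genes were lower but not absent: Aco1 stood at 8.60 ± 0.605 CPM in Irp1-/- against 11.7 ± 1.46 in WT, and Ireb2 at 62.7 ± 1.60 in Irp2-/- against 138.5 ± 4.45 in WT (adjusted p = 0.0158 and 2.84e-13, edgeR). The Aco1 difference lost its call without Irp1-/- replicate 6, WT replicate 2, WT replicate 3 or WT replicate 4 (adjusted p from 0.052 to 0.075, edgeR). CPM is a gene's count per 1000000 counts of its library, and values after ± are SDs over the 4 or 3 samples of a genotype throughout. Whole testis holds all stages of germ cells along with somatic cells, so fewer cells of a type and less RNA per cell cannot be told apart. Tissue markers were those of testis, since 10 markers of elongating spermatids summed to 21220 to 26230 CPM, whereas the 5 epididymis markers summed to at most 0.122 CPM, with Lcn5 at 0 in all 11 samples.

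The coding sequences show how far the germ cell genes differ from their widely used counterparts, which sets how well reads can tell them apart. Below, the first 60 bases of the older gene are given beside the aligned bases of its germ cell copy, from transcripts of the mm10 annotation, and capitals mark the bases of the copy that differ from the older gene. The pair of phosphoglycerate kinases and the pair of lactate dehydrogenases are divergent, with 20 and 18 differences in this stretch. The aldolase copies are not, with 6 differences in Aldoart1 (bases 166 to 225 of its annotated coding sequence) and 4 in Aldoart2, a further germ cell copy of the same gene.
Pgk1: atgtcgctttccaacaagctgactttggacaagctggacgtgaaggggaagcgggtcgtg
Pgk2: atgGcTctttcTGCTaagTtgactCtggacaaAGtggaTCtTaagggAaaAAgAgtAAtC
Ldha: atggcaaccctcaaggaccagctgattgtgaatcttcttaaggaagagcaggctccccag
Ldhc: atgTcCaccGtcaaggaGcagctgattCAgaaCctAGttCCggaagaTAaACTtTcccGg
Aldoa: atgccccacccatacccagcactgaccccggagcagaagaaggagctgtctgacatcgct
Aldoart1: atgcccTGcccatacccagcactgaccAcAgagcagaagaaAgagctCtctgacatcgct
Aldoart2: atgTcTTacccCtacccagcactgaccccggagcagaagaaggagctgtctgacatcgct

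Over the whole coding sequence, identity to the counterpart was 71.8% for Gapdhs and Gapdh, 79.5% for Pgk2 and Pgk1, 74.0% for Ldhc and Ldha, 70.2% for Ldhal6b and Ldha, and 93.9% for Aldoart1 and Aldoa. The longest identical run was 86 bases in the aldolase pair and at most 23 bases in the other 4 pairs. Of all stretches of 50 bases in the annotated transcripts of each gene, 5.79% of those of Aldoart1 occurred in another gene as well, mostly Aldoa. The shares were 6.83% for Tpi1 and 15.3% for Ldha, mostly with pseudogenes, and 0 for the other 7 members. For those 7, no exact sharing of reads of this length with other annotated transcripts was found. Near matches and sequence outside the annotated transcripts were not searched. Counts of the somatic counterparts Gapdh and Pgk1 were open to sharing, since 78.3% and 68% of their stretches recur in other annotated transcripts. For Pgam1, Ldhb and Aldoa, which enter the step shares below, 41.5%, 27.0% and 11.2% of the stretches recur. Values of these genes, and shares taken against them, are uncertain to that extent.

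Pgk2 (chr17:40207015-40208640, minus strand), Aldoart1 (chr4:72850583-72852634, minus strand) and Ldhal6b (chr17:5417323-5418767, minus strand) each have a single coding exon, while Gapdhs (chr7:30729775-30743681, minus strand) has 11. Ldhc (chr7:46861203-46878142, plus strand) lies 5.58 kb downstream of Ldha (chr7:46841475-46855627, plus strand), in the same direction. The other members are Hk1 (chr10:62268855-62379908), Pgam2 (chr11:5801640-5803733), Tpi1 (chr6:124810586-124814296) and Slc2a3 (chr6:122727809-122801640), all on the minus strand. Positions are those of the GENCODE annotation of mm10.

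The letters TGACGT, the core of the cyclic AMP response element, were searched on both strands in the 250 bases before each start site listed by RefSeq for this build. They are shown because the neighbouring lactate dehydrogenase genes both hold them, so the share of 6.47% among 32851 promoters that hold them is a description only. Of the 2 listed start sites of Ldhc 1 had matches and the other had none, and the same held for Ldha. The windows of Gapdhs, Pgk2, Ldhal6b, Hk1, Pgam2 and Tpi1 had none. Aldoart1 and Slc2a3 had no start site in the list used and were not searched. Ldhc held the letters at separate places, whereas in Ldha the same palindrome was read on each strand, so its matches overlap. The matches, in capitals, lie in the stretches chr7:46861195-46861224 and chr7:46845774-46845803 on the plus strand. The RefSeq start sites that follow them, at 46861263 and 46845804, lie inside the GENCODE spans of Ldhc and Ldha given above. Whether a GENCODE transcript also starts at these sites was not compared, so the matches are placed by RefSeq alone.
Ldhc: tgcgtgcTGACGTtgactttgTGACGTtcc
Ldha: tccgctgggctcccactcTGACGTCAgcgc

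In WT testis the members were among the most abundant transcripts. To compare genes with each other, CPM was divided by the median length in kb of each gene's protein-coding transcripts, and the 19913 genes with such a length were ranked. Ldhc, the germ cell lactate dehydrogenase, had the highest level of the 10 with 2549 ± 67.4 CPM per kb and was 6th among all of them. Gapdhs, the sperm form of glyceraldehyde-3-phosphate dehydrogenase, followed with 1525 ± 23.9 CPM per kb and ranked 15. Then came Pgam2, a phosphoglycerate mutase best known from muscle, with 859 ± 17.1 CPM per kb (rank 40), and Hk1, the hexokinase that starts the pathway, with 715 ± 22.9 (rank 57). The next neighbours in the order, Pgk2 with 536 ± 5.57 (rank 80) and Ldha with 515 ± 12.2 (rank 88), overlapped in their WT samples. Ldhal6b, a further lactate dehydrogenase gene, stood at 455 ± 4.01 CPM per kb (rank 116). The glucose carrier Slc2a3, with 328 ± 13.9 (rank 193), overlapped with the triose phosphate isomerase Tpi1, with 310 ± 6.83 (rank 209). Aldoart1 stood well apart at the bottom, with 71.7 ± 1.58 CPM per kb (rank 1449). With the combined length of all exons in place of the median transcript, the only change in this order was that Ldhal6b came before Ldha, at 455 against 431 CPM per kb.

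**Figure D1:**
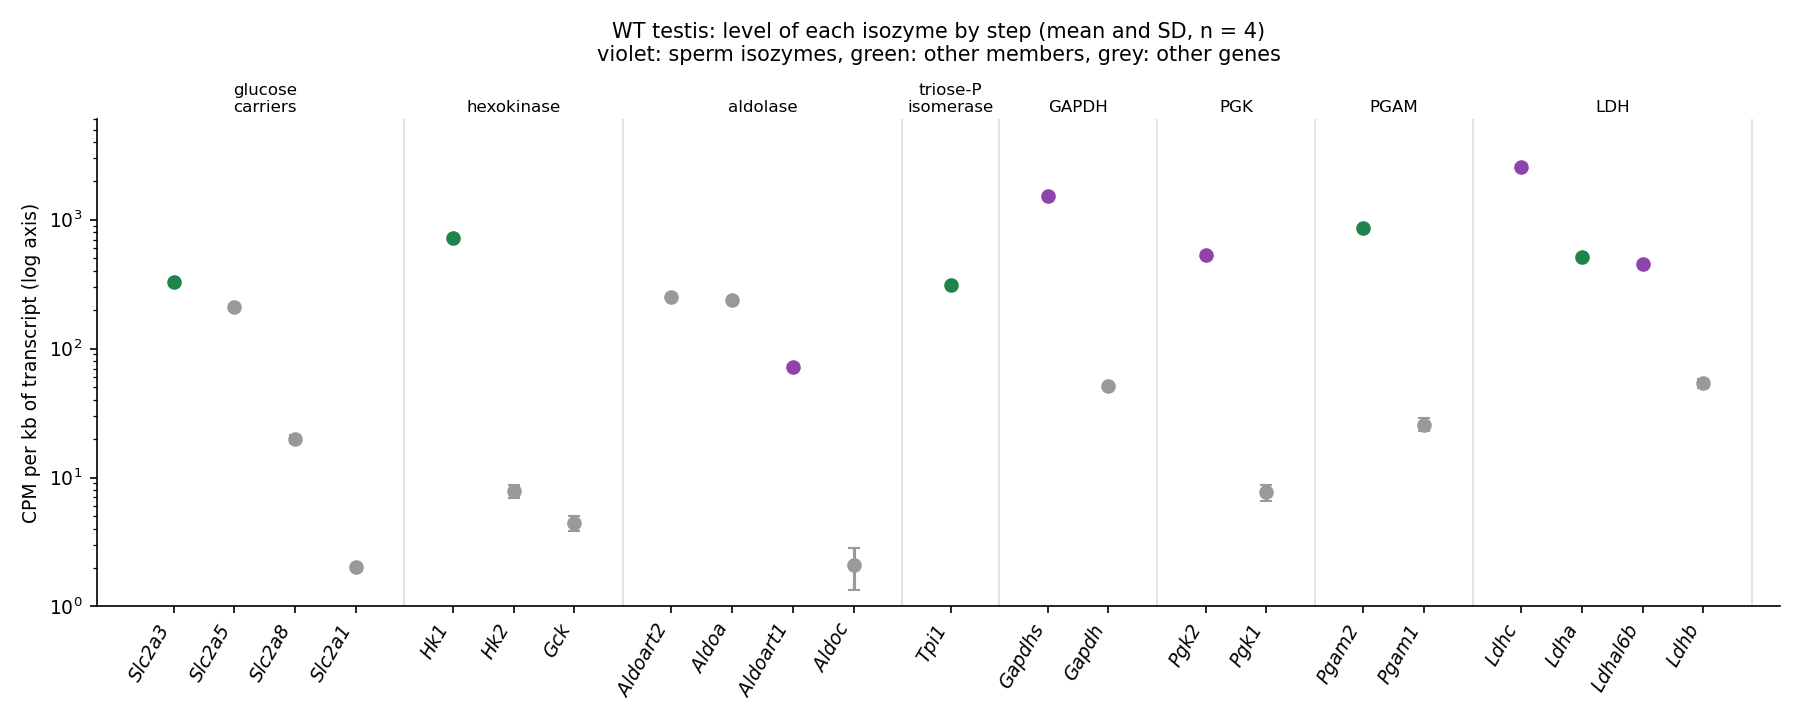
Level of each isozyme in WT testis, in CPM per kb of transcript on a log axis, grouped by step; points are means and bars SDs over 4 samples. Gapdhs, Pgk2 and Pgam2 lie far above the other enzyme of their step, whereas Aldoart1 (71.7) lies under Aldoa and Aldoart2.

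At 4 of the steps that hold a member, 1 of the isozymes made up nearly all of the transcript level per kb. In WT, Hk1 held 98.2% ± 0.15 of the hexokinase level, Gapdhs 96.7% ± 0.12 of its step, Pgk2 98.6% ± 0.19 of phosphoglycerate kinase and Pgam2 97.1% ± 0.34 of phosphoglycerate mutase. Lactate dehydrogenase was shared, with Ldhc at 71.3% ± 0.49, Ldha at 14.4% ± 0.39, Ldhal6b at 12.7% ± 0.31 and Ldhb, the heart form, at 1.51% ± 0.10. The aldolase step was led by Aldoart2 with 44.4% ± 0.44 and Aldoa with 42.5% ± 0.47, and Aldoart1 held 12.7% ± 0.15. Of the steps without a member, phosphofructokinase and enolase were also shared. Pfkm and Pfkp of phosphofructokinase stood at 56.9 and 48.4 CPM per kb. Among the enolases Eno1b stood at 185.9, Eno1 at 53.9, Eno4 at 28.1 and Eno3 at 24.5 CPM per kb. The split between Eno1 and Eno1b is uncertain, since 57.2% and 85.2% of their stretches of 50 bases recur elsewhere. Pyruvate kinase was not shared, with Pkm at 153.8 and Pklr at 0.0049 CPM per kb. Of the glucose and fructose carriers, Slc2a3 held 58.4% ± 1.8 and the fructose carrier Slc2a5 37.6% ± 1.6. The high share of Pgam2 came with low levels of other muscle transcripts: 7 skeletal muscle markers summed to 14.5 to 17.8 CPM, against 653.8 to 762.6 CPM for Pgam2.

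The question of the knockouts was whether these transcripts change when either iron regulatory protein is missing. In Irp1-/- testis, 1 of the 10 members passed the test, at an adjusted p under 0.05 over all genes, namely Aldoart1, which was lower. Over all 16002 genes tested the share was 1.02%, and 0.444% passed as lower. At an unadjusted p under 0.05 the members counted 2, where 12.1% of all genes did. The median log2 fold change of the 10 members was -0.02, against -0.0008 for all genes. Their median size, sign left out, was 0.03 on the log2 scale, against 0.07 for all genes. The sizes are not like for like, since the SEs of the members were 0.0354 (Ldhal6b) to 0.0442 (Aldoart1). The median SE of all genes was 0.082. In Irp2-/- testis none of the 10 passed by edgeR, where 1.21% of 16154 genes did. An unadjusted p under 0.05 (edgeR) was found for 3, as for 9.42% of all genes. DESeq2 called 1, Pgk2, and 187 of 20683 genes in all. Between the knockouts none passed by edgeR, where 4.69% of 16281 genes did. Here 2 had an unadjusted p under 0.05 (edgeR), as did 16.3% of all genes. DESeq2 called both, Pgk2 and Tpi1, and 641 of 20743 genes in all. The median log2 fold changes of the members were -0.05 in Irp2-/- against WT and 0.01 in Irp1-/- against Irp2-/-, where those of all genes were 0.0033 and -0.0019. Their median sizes were 0.058 and 0.045, where those of all genes were 0.071 and 0.088. Both knockouts were compared with the same WT samples, so the values are set side by side and are not independent.

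**Figure D2:**
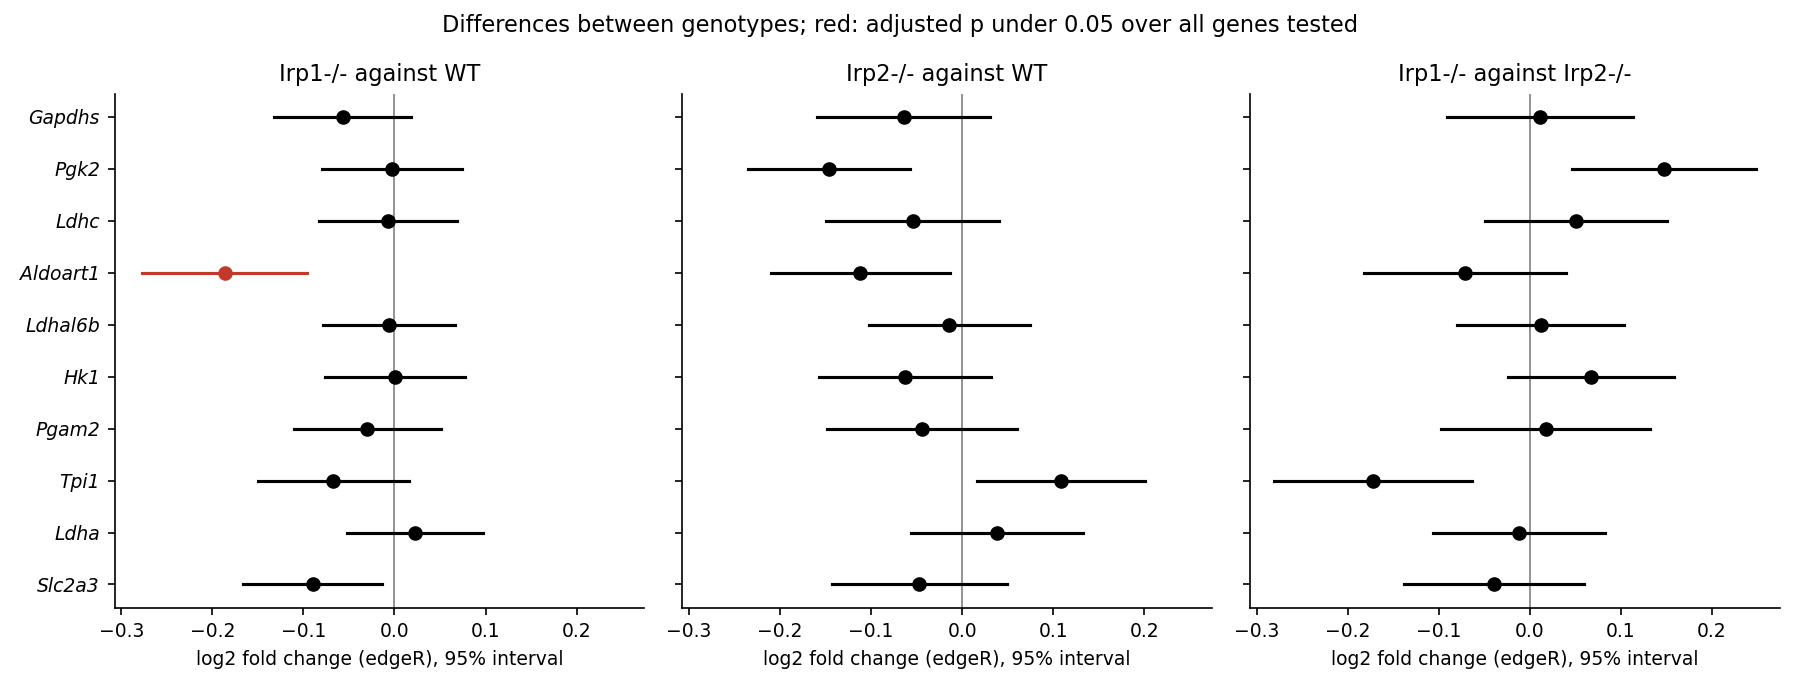
Log2 fold change of the 10 members in each comparison by edgeR, as points with 95% intervals as lines. Aldoart1 in Irp1-/- against WT, in red, is the value past the adjusted threshold; Pgk2 and Tpi1 have intervals clear of 0 in both comparisons with Irp2-/- samples.

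Aldoart1 encodes an aldolase of the sperm tail. It measured 150.7, 148.7, 145.6 and 143.4 CPM in WT, 122.6, 134.7, 126.8 and 138.1 CPM in Irp1-/-, and 143.7, 134.4 and 135.9 CPM in Irp2-/- samples. All 4 Irp1-/- samples lay under all 4 WT samples, a separation seen in 6.18% of all genes tested and in this direction in 2.41%, and the highest Irp2-/- sample lay just above the lowest WT sample. With TMM normalization, the Irp2-/- samples also lay under all WT samples. The share of all genes with that separation was not computed after TMM. In Irp1-/- the transcript was at 0.879 times its WT level, a log2 fold change of -0.19 ± 0.04 (SE, 95% interval -0.28 to -0.10, adjusted p = 0.0341, edgeR quasi-likelihood test with Benjamini-Hochberg adjustment). In Irp2-/- it was at 0.925 times the WT level, which did not pass (log2 fold change -0.11 ± 0.05, adjusted p = 0.412). Nor did the knockouts differ beyond their spread (-0.07 ± 0.05, Irp1-/- minus Irp2-/-, interval -0.18 to 0.04, adjusted p = 0.575), so a loss particular to Irp1-/- is not shown.

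The call was narrow. In a fit of all 11 samples the adjusted p was 0.0559 by edgeR. It rose to 0.221 without Irp1-/- replicate 1, 0.104 without Irp1-/- replicate 6, 0.0967 without WT replicate 1, 0.135 without WT replicate 2 and 0.0597 without WT replicate 3, while the log2 fold change stayed between -0.21 and -0.15. In the deposited table, Irp1-/- replicate 6 carries the letter R and the other samples the letter L, whose meaning is not stated. Aldoart1 and the knocked-out Aco1 both lie on chromosome 4, 32.7 Mb apart. Of the 195 tested genes between them 15 passed the test in Irp1-/- against WT (7.69%), against 2.60% of the 961 tested genes of the chromosome and 1.02% of all genes. Among the 5 tested genes within 2 Mb of Aldoart1 none passed, and any part of strain sequence linked to the Aco1 allele was not tested.

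Aldoa, the aldolase that shares stretches with Aldoart1, did not pass the test. It stood at 362.1 ± 7.09 CPM in WT, 371.2 ± 3.93 in Irp1-/- and 377.9 ± 11.2 in Irp2-/- (adjusted p = 0.868 and 0.876 by edgeR against WT, with 95% intervals of the log2 fold change from -0.05 to 0.10 and from -0.05 to 0.13). The third gene of the step, Aldoart2, stood at 414.8 ± 6.95 CPM in WT, 432.1 ± 8.96 in Irp1-/- and 407.2 ± 13.8 in Irp2-/-, with no call. Within the aldolase step the share of Aldoart1 was 12.6% to 12.9% in WT, 10.5% to 11.6% in Irp1-/- and 11.8% to 12.0% in Irp2-/- samples, with no overlap of either knockout and WT.

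Among the other sperm isozymes, Pgk2 carried the largest difference in Irp2-/-. This phosphoglycerate kinase forms the first ATP of the pathway's payoff. It measured 861.3, 869.7, 871.0 and 883.3 CPM in WT, 828.6, 775.6 and 790.1 CPM in Irp2-/-, and 874.0, 899.9, 825.4 and 911.8 CPM in Irp1-/- samples. The Irp2-/- samples lay under all WT samples, as did 1 Irp1-/- sample. On CPM, separation of Irp2-/- and WT samples was found for 2 members, Pgk2 lower and Tpi1 higher, and for 9.76% of all genes tested, 3.68% lower and 6.08% higher. With TMM normalization it was found for Aldoart1 also. Pgk2 in Irp2-/- was at 0.904 times its WT level (log2 fold change -0.15 ± 0.04, interval -0.24 to -0.06), which missed the threshold by edgeR (unadjusted p = 0.00248, adjusted p = 0.121) and passed by DESeq2 (adjusted p = 0.0102). Without Irp2-/- replicate 1, the highest of its group, it passed by edgeR also (adjusted p = 0.0353), while the other 6 refits that left out 1 sample made no call, with an adjusted p of up to 0.368. In Irp1-/- the difference from WT was -0.0026 ± 0.04 (interval -0.08 to 0.07, adjusted p = 0.989 by edgeR), and between the knockouts it was 0.15 ± 0.05 (adjusted p = 0.0924 by edgeR, 0.0494 by DESeq2, and 0.0434 by edgeR without Irp2-/- replicate 1). In the other 6 refits of that comparison it was not called (adjusted p up to 0.295, edgeR). The 10 elongating spermatid markers had a median log2 fold change of -0.09 in Irp2-/- against WT, where none of them passed, with sums of 21220 to 24930 CPM against 23960 to 24940 CPM. Their part in the Pgk2 value was not tested.

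Gapdhs, the glyceraldehyde-3-phosphate dehydrogenase anchored in the sperm tail, measured 2156, 2150, 2113 and 2196 CPM in WT, 2059, 2183, 2007 and 2109 CPM in Irp1-/-, and 2178, 2089 and 1996 CPM in Irp2-/- samples. The genotypes overlapped, and the knockouts spread more widely than WT. The log2 fold changes were -0.06 ± 0.04 in Irp1-/- and -0.06 ± 0.05 in Irp2-/- against WT (adjusted p = 0.58 and 0.761, edgeR), with intervals from -0.13 to 0.02 and -0.16 to 0.03.

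Ldhc, which interconverts pyruvate and lactate in sperm, measured 2646, 2759, 2701 and 2813 CPM in WT, 2734, 2730, 2614 and 2886 CPM in Irp1-/-, and 2783, 2639 and 2572 CPM in Irp2-/- samples. These ranges overlapped in every comparison, and the highest and the lowest value were both from knockouts. Ldhal6b was the steadiest sperm isozyme, at 657 ± 5.80 CPM in WT, 660.6 ± 17.1 in Irp1-/- and 659.7 ± 12.0 in Irp2-/-. Its intervals for the log2 fold change against WT were -0.08 to 0.07 in Irp1-/- and -0.10 to 0.07 in Irp2-/-, so larger differences lie outside them.

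**Figure D3:**
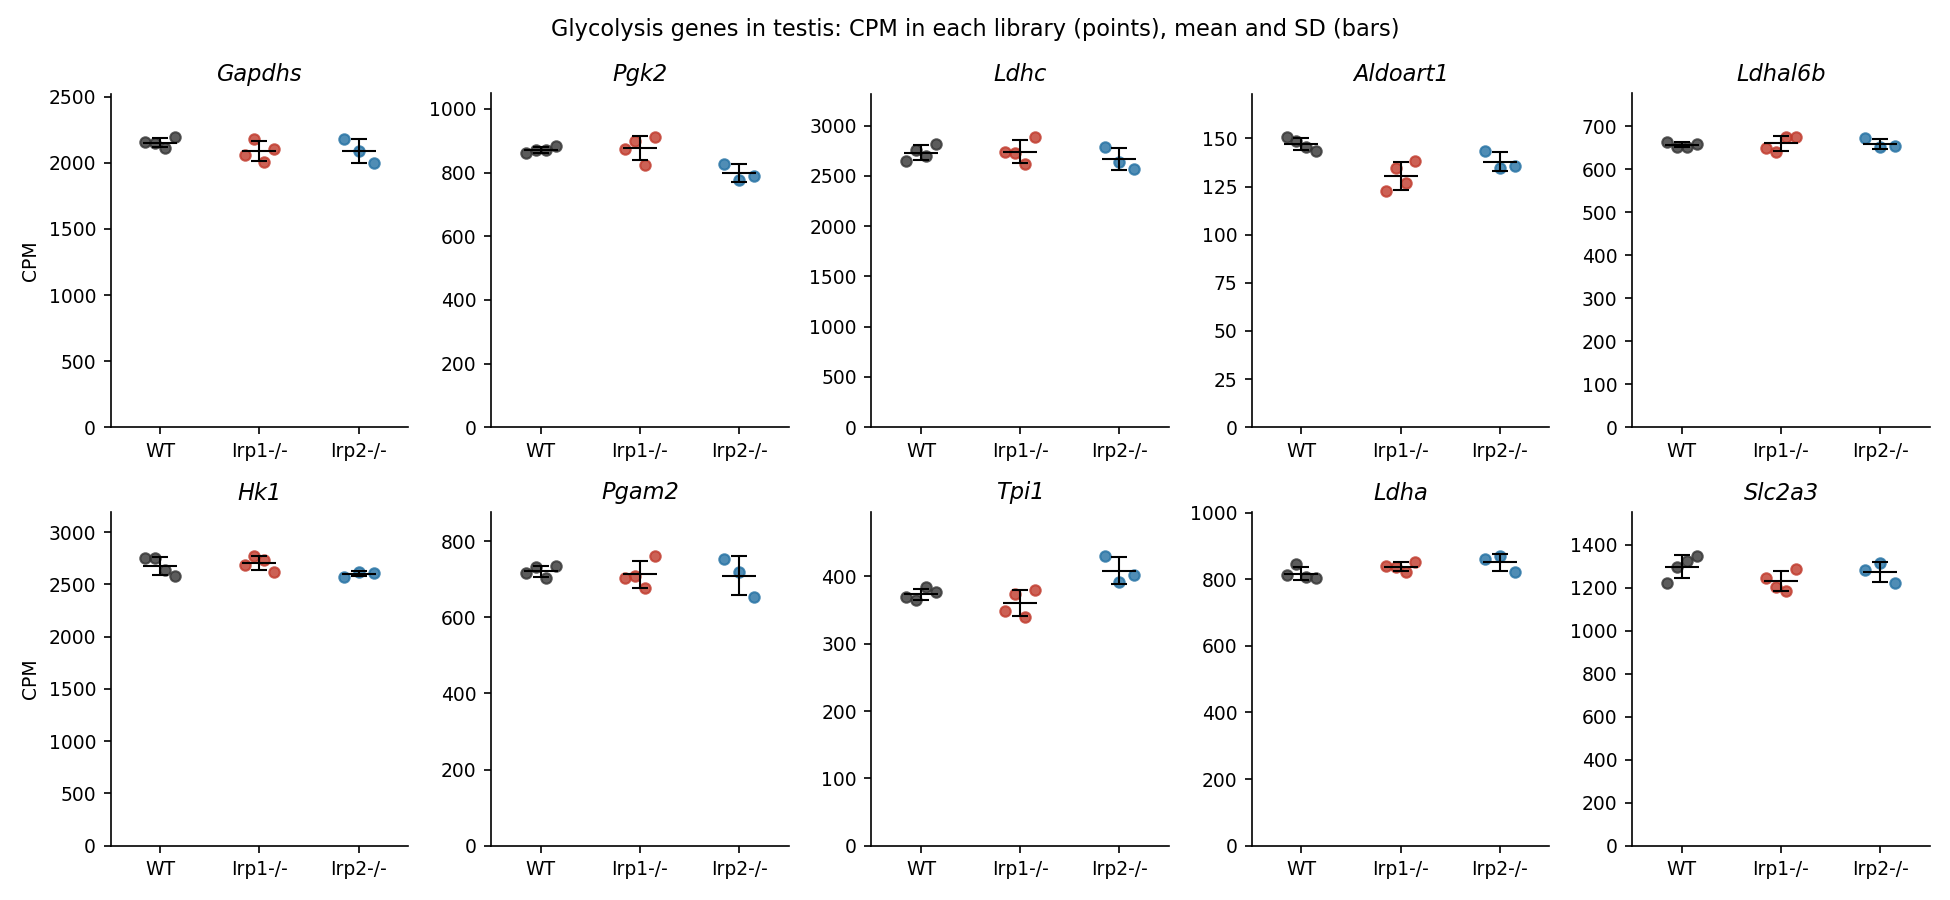
CPM of each member in every library (points) with the mean and SD of each genotype (bars), each axis starting at 0. The 4 Irp1-/- samples of Aldoart1 sit under the 4 WT samples, the 3 Irp2-/- samples of Pgk2 sit under and those of Tpi1 above the WT samples, and the genotypes overlap in the other panels.

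Of the members that also work outside germ cells, Tpi1 differed most. The isomerase, which lets both products of aldolase enter the later steps of the pathway, measured 370.0, 365.0, 384.1 and 376.3 CPM in WT, 348.1, 373.6, 339.2 and 379.6 CPM in Irp1-/-, and 431.1, 391.8 and 402.8 CPM in Irp2-/- samples. All Irp2-/- samples lay above all others. The log2 fold change in Irp2-/- against WT was 0.11 ± 0.04 (unadjusted p = 0.0235, adjusted p = 0.385, edgeR), and 0.07 without Irp2-/- replicate 1, the highest sample. Between the knockouts, Irp1-/- was at 0.888 times the level of Irp2-/- (log2 fold change -0.17 ± 0.05, interval -0.28 to -0.06), without overlap, as in 15.1% of all genes tested and in this direction in 8.42%. That difference missed the threshold by edgeR (adjusted p = 0.0654) and passed by DESeq2 (adjusted p = 0.0469), in the fit of all 11 samples (adjusted p = 0.0306, edgeR) and without Irp1-/- replicate 7 (adjusted p = 0.0333, edgeR). The other 6 refits that left out 1 sample made no call (adjusted p up to 0.241, edgeR), and the difference was -0.13 without Irp2-/- replicate 1. Pgk2 and Tpi1 thus lay on opposite sides of WT in Irp2-/- testis, although they varied together between samples of a genotype, as described below.

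Slc2a3, a high-affinity glucose carrier, measured 1223, 1298, 1323 and 1351 CPM in WT and 1247, 1205, 1185 and 1289 CPM in Irp1-/- samples. The groups overlapped, and the difference of -0.09 ± 0.04 on the log2 scale did not pass (unadjusted p = 0.0232, adjusted p = 0.306, edgeR). In Irp2-/- samples Slc2a3 stood at 1273 ± 45.6 CPM. Hk1 stood at 2678 ± 85.8 CPM in WT, 2704 ± 67.8 in Irp1-/- and 2600 ± 24.2 in Irp2-/-, Pgam2 at 721 ± 14.4, 713 ± 35.4 and 709 ± 50.9, and Ldha at 817 ± 19.5, 838 ± 13.1 and 851 ± 26.3. No comparison of Hk1, Pgam2 or Ldha had an unadjusted p under 0.05, and their 95% intervals lay between -0.16 and 0.16 on the log2 scale.

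The ratio of a germ cell isozyme to its widely used counterpart in the same library is free of library size. It was compared for 5 pairs in 3 comparisons, 15 exact permutation tests in all (two-sided), for which 0.0286 is the smallest p these sample numbers allow. Groups did not overlap in 5 of the 15, each at that smallest p and at 0.0858 after Benjamini-Hochberg adjustment, so none passed after adjustment. The share of non-overlapping ratios over other gene pairs was not computed, and single genes did not overlap with WT in 6.18% (Irp1-/-) and 9.76% (Irp2-/-) of those tested. The count of Gapdhs was 31.6 to 34.5 times that of Gapdh in WT, 28 to 30.5 times in Irp1-/- and 25.8 to 28.5 times in Irp2-/- samples, lower by 0.16 and 0.26 on the log2 scale. Gapdhs itself overlapped between genotypes, whereas the denominator Gapdh stood at 65.8 ± 1.45 CPM in WT, 71.2 ± 0.454 in Irp1-/- and 76.3 ± 7.09 in Irp2-/-, without overlap with WT. The log2 fold changes of Gapdh against WT were 0.10 and 0.20 (adjusted p = 0.317 and 0.125, edgeR), the latter 0.12 without Irp2-/- replicate 1.

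The ratio of Aldoart1 to Aldoa was 0.395 to 0.417 in WT, 0.334 to 0.367 in Irp1-/- and 0.363 to 0.368 in Irp2-/- samples, lower in every knockout sample than in any WT sample. The ratio of Ldhc to Ldha was 3.26 to 3.50 in WT and 3.03 to 3.24 in Irp2-/-, without overlap, and 3.18 to 3.38 in Irp1-/-, which overlapped with WT. The ratios of Pgk2 to Pgk1 and of Pdha2 to Pdha1, the germ cell and X-linked subunits of pyruvate dehydrogenase, overlapped in every comparison of a knockout with WT (exact permutation p from 0.229 to 0.886). The denominators were low, Pgk1 at 14.0 ± 1.99 CPM and Pdha1 at 6.34 ± 1.09 CPM in WT.

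**Figure D4:**
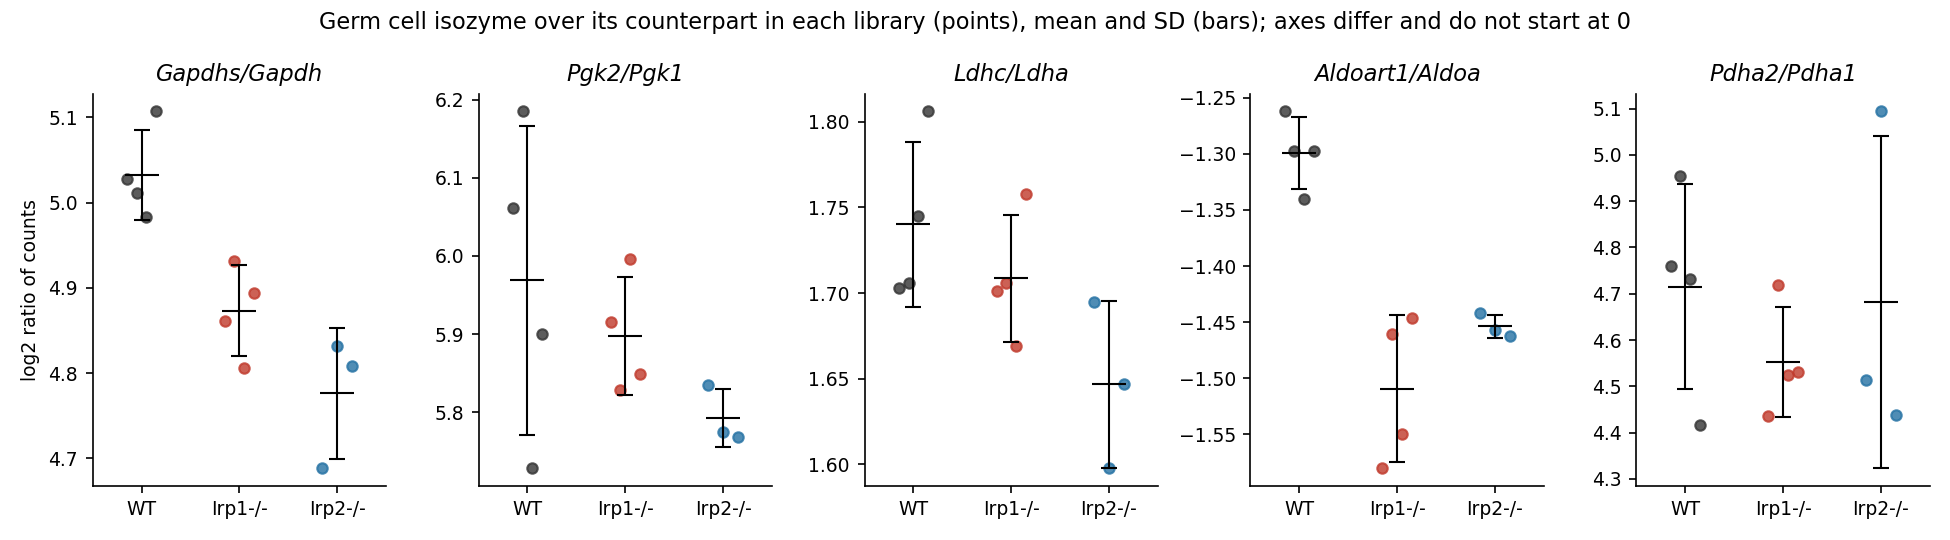
Log2 ratio of the counts of each germ cell isozyme and its counterpart in every library (points), with mean and SD (bars); axes differ between panels and do not start at 0. Both knockouts lie under WT without overlap for Gapdhs over Gapdh and for Aldoart1 over Aldoa, and Irp2-/- does for Ldhc over Ldha.

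Markers of the cell types were set beside these ratios. In Irp1-/- testis, 9 Sertoli cell markers had a median log2 fold change of 0.09 against WT, and they summed to 1301 to 1481 CPM against 1171 to 1282 CPM. Of these, 1 passed (Clu, 0.16, adjusted p = 0.0473, edgeR), where 1.02% of all genes did. The 7 Leydig cell markers had a median of 0.40 with none past the test, at 1001 to 1180 CPM against 724.6 to 1071 CPM. The 8 spermatocyte markers had a median of -0.08 with none past the test, at 1561 to 1592 CPM against 1598 to 1690 CPM. At an unadjusted p under 0.05 (edgeR) these 3 lists counted 6 of 9, 2 of 7 and 3 of 8 markers, where 12.1% of all genes did. The Clu call was lost in the fit of all 11 samples (adjusted p = 0.109, edgeR) and without Irp1-/- replicate 1 (0.307), Irp1-/- replicate 6 (0.0587), WT replicate 1 (0.114), WT replicate 2 (0.187) or WT replicate 3 (0.0675). In Irp2-/- against WT the medians of these lists were 0.01, 0.07 and -0.02, with none past the test. There 0, 1 and 0 markers had an unadjusted p under 0.05 (edgeR), as did 9.42% of all genes. The 7 macrophage markers had a median of 0.20 in Irp2-/- against WT, all of them above 0 and none past the test, at 71.1 to 80.1 CPM against 59.98 to 75.13 CPM. The 3 blood markers tested in Irp1-/- against WT had a median of 0.74 with none past the test, and all 5 summed to 37.4 to 56.7 CPM against 30.3 to 36.3 CPM. The part of cell composition in the ratios was not tested.

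The rest of the pathway was described by 4 further lists. Of 25 other glycolysis genes, 21 were tested, and none passed against WT in Irp1-/- (5 at an unadjusted p under 0.05, edgeR) or in Irp2-/- (4 at an unadjusted p under 0.05, edgeR). Gpi1, the isomerase of the second step, was the highest of this list at 567.8 ± 12.2 CPM in WT. Between the knockouts 2 of the 21 passed, both lower in Irp1-/- than in Irp2-/-, where 4.69% of all genes passed. At an unadjusted p under 0.05 (edgeR) that comparison counted 6 of the 21. Over all genes the unadjusted shares were 12.1% in Irp1-/- against WT, 9.42% in Irp2-/- against WT and 16.3% between the knockouts. Pkm, the pyruvate kinase of the last ATP-forming step, measured 316.8, 327.9, 319.9 and 325.0 CPM in Irp1-/- and 373.1, 373.9 and 356.0 CPM in Irp2-/- samples, with WT from 331.3 to 361.1 CPM. The groups were apart and differed by -0.18 ± 0.05 on the log2 scale (edgeR, adjusted p = 0.0245), a call that was lost without Irp1-/- replicate 1 (0.114), Irp1-/- replicate 6 (0.0663) or Irp2-/- replicate 2 (0.142). Pkm and the knocked-out Ireb2 both lie on chromosome 9, at a distance not computed here. Any part of strain sequence linked to the Ireb2 allele was not tested.

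Eno1, the widely used enolase, stood at 98.5 ± 9.75 CPM in Irp1-/-, 125.3 ± 13.3 in Irp2-/- and 105.9 ± 5.81 in WT. It differed between the knockouts by -0.34 ± 0.08 (log2, adjusted p = 0.0237, edgeR), which was lost without Irp1-/- replicate 7 (0.0983), Irp2-/- replicate 1 (0.077) or Irp2-/- replicate 3 (0.0829). Of its stretches of 50 bases 57.2% recur elsewhere, mostly in Eno1b, whose coding sequence is 99.4% identical, so the split of reads between them is uncertain. The median log2 fold change of the 21 genes was 0.01, 0.02 and 0.02 in Irp1-/- against WT, Irp2-/- against WT and between the knockouts.

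Of 7 genes that make or remove fructose 2,6-bisphosphate or act on fructose 1,6-bisphosphate, 6 were tested and none passed in any comparison. At an unadjusted p under 0.05 (edgeR) they counted 1, 0 and 1 in the same order, beside 12.1%, 9.42% and 16.3% of all genes. Fbp1, a fructose bisphosphatase, was the highest, at 463.1 ± 9.42 CPM in WT. Of 15 sugar and lactate carriers, 11 were tested and none passed (1, 0 and 0 at an unadjusted p under 0.05, edgeR, beside the same shares of all genes). Slc2a5 was the highest of them, at 667.8 ± 22.97 CPM in WT, followed by the lactate carrier Slc16a7, at 588.6 ± 13.9 CPM. Of 26 genes of pyruvate entry into mitochondria and of ATP supply in sperm, 24 were tested. None passed in Irp1-/- against WT (3 at an unadjusted p under 0.05, edgeR, beside 12.1% of all genes). In each of the other comparisons 1 passed, Ak1, where 1.21% (Irp2-/- against WT) and 4.69% (between the knockouts) of all genes did. At an unadjusted p under 0.05 (edgeR) these comparisons counted 3 and 7 of the 24, beside 9.42% and 16.3% of all genes. Gpd2, a mitochondrial glycerol-3-phosphate dehydrogenase, was the highest of that list, at 676.3 ± 16.4 CPM in WT.

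Ak1, an adenylate kinase that evens out ATP, ADP and AMP, measured 245.9, 244.0, 237.7 and 234.6 CPM in WT, 215.5, 217.8 and 204.5 CPM in Irp2-/-, and 241.9, 246.4, 234.4 and 250.8 CPM in Irp1-/- samples. The Irp2-/- samples lay under all the others. It fell by 0.20 on the log2 scale in Irp2-/- against WT, with an SE of 0.05 (adjusted p = 0.0333, edgeR), and was higher in Irp1-/- than in Irp2-/- by 0.20 ± 0.05 (adjusted p = 0.0147, edgeR). Against WT the call was lost without Irp2-/- replicate 2 (0.0597), Irp2-/- replicate 3 (0.18), WT replicate 1 (0.114), WT replicate 2 (0.16) or WT replicate 3 (0.0623), and between the knockouts without Irp2-/- replicate 3 (0.081).

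How the members vary together was described over the 11 samples, on log2 CPM with each genotype's mean subtracted. The points share libraries, and these correlations carry no test. The sperm isozymes Gapdhs, Pgk2, Ldhc and Aldoart1 varied alike, with Pearson r from 0.59 to 0.85 between them. The highest r of all pairs was 0.929 for Ldhc and Pgam2, and that of Pgk2 and Tpi1 was 0.908. With the 5 sperm isozymes, r was 0.431 to 0.665 for Ldha and 0.0399 to 0.759 for Slc2a3. Ldhal6b had r of 0.144 to 0.579 with the other sperm isozymes, so the line between the 2 kinds of member was not sharp. Hk1 stood apart, with r between -0.34 and 0.56 to the other 9, the lowest with Slc2a3, and Ldhal6b reached at most 0.59. The r with the mean profile of the 5 sperm isozymes was 0.918 for Pgam2, 0.81 for Tpi1, 0.674 for Ldha, 0.437 for Slc2a3 and 0.192 for Hk1. Among 16396 other genes, those most like this profile were Ppp1r11 (r = 0.971), Pebp1 (0.967), Gstm5 (0.966), Tbc1d20 (0.966) and Lrrc74a (0.964).

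**Figure D5:**
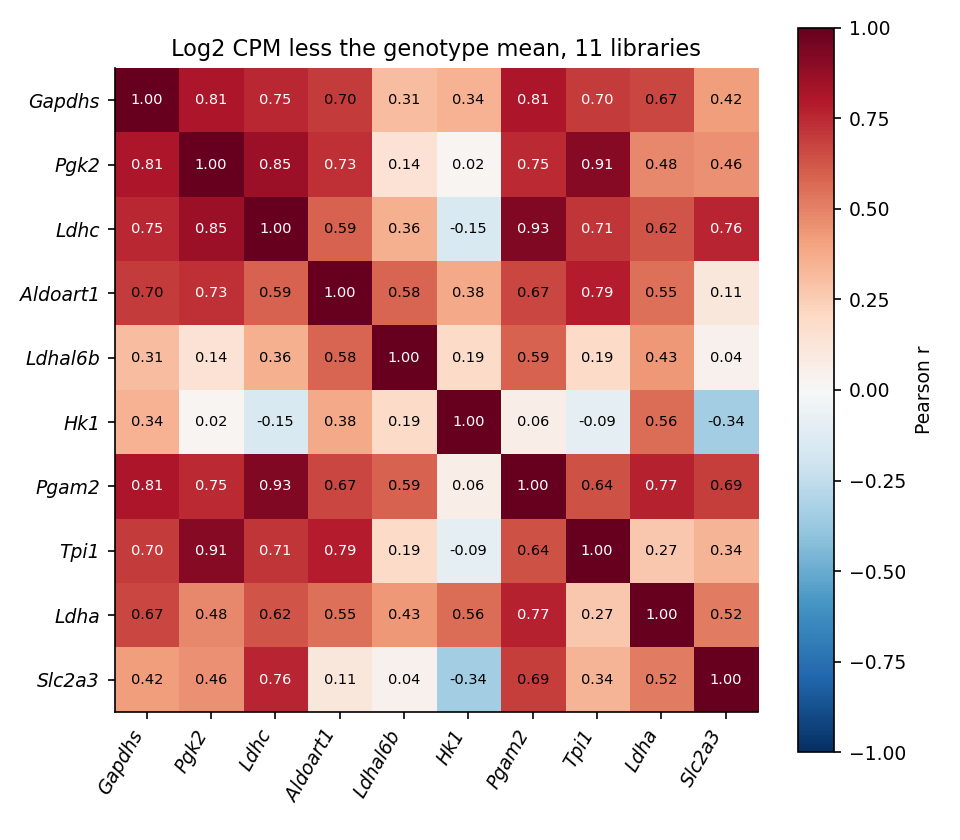
Pearson r between members over 11 libraries, on log2 CPM less the genotype mean, from -1 (blue) to 1 (red). The block of Gapdhs, Pgk2, Ldhc and Aldoart1 with Pgam2 and Tpi1 is red, and the Hk1 row is pale.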

How the data were processed

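Illumina stranded mRNA libraries of decapsulated testis were sequenced. The values the authors deposited are read counts for each gene, not normalized, which came from mm10 and an nf-core pipeline, and their own tests used DESeq2. Per the labels, bcl2fastq 2.20.0.422 made the reads. The counting tool was not given in the sources used here, so counts may be rounded estimates. All 11 sample columns were used, and no pair of replicates agreed within sampling noise (chi-square per degree of freedom 2.00 to 7.05).

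The members and gene lists were chosen with earlier results of these data known. Samples were grouped by their genotype labels. Each comparison was fitted on the samples of its 2 genotypes in R 4.3.3 with edgeR 4.0.16 (filterByExpr, TMM normalization with factors from 0.98 to 1.02, robust quasi-likelihood test, Benjamini-Hochberg adjustment over all genes tested at a threshold of 0.05). Standard errors and 95% intervals came from the same fit. Isozyme ratios used a pseudocount of 0.5 and exact permutation over samples. DESeq2 1.42.0, other size factors, other count filters, a fit of all 11 samples, a replicate block and leaving out each sample were the alternatives. The statistics were tested on simulated data. Named were all members, the genes of the other pathway lists past the test, the counterparts, each list's highest gene by CPM and the 5 genes most like the sperm isozyme profile, taken on log2 CPM with a prior count of 2. Positions, transcript lengths, coding sequences and shared stretches came from GENCODE M21 (mm10), with alignments in Biopython 1.88, and promoters from RefSeq (GRCm38.p6). Counting error and the number of samples both limit the precision.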

Additional observations from a re-analysis of the deposited data

How the results depend on the processing

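Which members passed depended on the fit. The count in Irp1-/- against WT went from 1 to 0 in the fit of all 11 samples, that in Irp2-/- against WT from 0 to 1 by DESeq2, and that between the knockouts from 0 to 1 without a count filter, 2 by DESeq2 and 2 in the fit of all 11 samples. In the same order, these fits called 120 of 16406, 187 of 20683, 827 of 20755, 641 of 20743 and 839 of 16406 genes. Leaving out 1 sample at a time gave 0 to 1 members in each comparison. Over all genes this gave 55 to 216 calls in Irp1-/- against WT (164 with all samples), 118 to 223 in Irp2-/- against WT (196) and 414 to 763 between the knockouts (763).

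Same-numbered samples deviated together little (correlations from -0.01 to 0.0778 over 16406 genes). The best match of a sample was the same-numbered one in some cases and another one in others. Pairing by number was therefore not shown, and a shared litter or day was not tested. A replicate block gave 439 calls in Irp1-/- against WT, and Aldoart1 stayed among them, while Aco1 (adjusted p = 0.314) and both calls of Ak1 (0.0603 and 0.103) were lost by edgeR. In the comparisons with Irp1-/- samples, only replicates 1 and 2 occur in both genotypes. The genotype difference under the block rests there on those samples alone, so its calls and signs carry little weight. The cause of the changed calls was not tested. Under the block the log2 fold change turned sign in Irp1-/- against WT for Pgk2 (0.00646), Hk1 (-0.0386), Ldha (-0.0123) and Aldoa (-0.00842), and between the knockouts for Gapdhs (-0.00612), Ldhal6b (-0.0338) and Pgam2 (-0.0584). Pgk2 in Irp1-/- against WT also turned with at least 10 counts in every sample (0.000817) and in the fit of all 11 samples (0.000447). All of these lay within their errors of 0.

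Leaving out 1 sample turned the sign of further values near 0. In Irp1-/- against WT the ranges were -0.0224 to 0.0232 for Hk1, -0.0159 to 0.00857 for Ldhal6b, -0.0302 to 0.0166 for Ldhc and -0.0201 to 0.0279 for Pgk2. In Irp2-/- against WT the range was -0.0910 to 0.0168 for Pgam2. Between the knockouts they were -0.0262 to 0.0437 for Gapdhs, -0.0431 to 0.0141 for Ldha, -0.00135 to 0.0283 for Ldhal6b, -0.0434 to 0.0648 for Pgam2 and -0.0288 to 0.00959 for Aldoa. The log2 ratio ranges were -0.17 to -0.14 for Aldoart1 over Aldoa, -0.28 to -0.21 for Gapdhs over Gapdh and -0.117 to -0.0688 for Ldhc over Ldha in Irp2-/- against WT. There the exact permutation p rose to between 0.0667 and 0.133. Fewer samples allow no smaller p than 0.0667, but the 0.133 of Ldhc over Ldha lay above the smallest p allowed. In Irp1-/- against WT they were -0.18 to -0.13 for Gapdhs over Gapdh (exact permutation p = 0.0571 without WT replicate 4) and -0.152 to 0.00045 for Pgk2 over Pgk1. Pdha2 over Pdha1 ranged from -0.239 to 0.0884 in Irp2-/- against WT and from -0.251 to 0.0763 between the knockouts. With exon union length, an alternative chosen after seeing the data, WT levels per kb were 1993 for Ldhc, 1342 for Gapdhs, 551.9 for Hk1, 431.3 for Ldha and 211.9 for Tpi1.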
